A study of Mus musculus with 22 samples.

Results

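The members are 6 genes of ionotropic glutamate receptors, the kainate receptor subunit genes Grik1, Grik2, Grik3, Grik4 and Grik5 and the delta receptor gene Grid1, out of 21701 protein-coding genes of the GENCODE annotation of the mouse genome (mm10). Every 100 kb bin that overlaps a member was taken for 5-methylcytosine (5mC), which gave 31 of 26327 bins, and every 1 Mb bin for 5-hydroxymethylcytosine (5hmC), which gave 8 of 2641 bins. All 31 and all 8 had levels above 0 and below 1 in every library and were used. The members were chosen by name as a receptor family with their 5mC and 5hmC levels in these bins already known. Their levels and differences between tissues are therefore given as a description. The share of all bins or genes that passed the same threshold is printed beside the counts of the main fits and of bins with centred libraries. It is not given for counts with a library left out, a replicate block or other alternatives. The levels came from cortex, olfactory bulb and cerebellum of female C57BL/6 mice at 8 weeks of age, with no treatment given in the labels. The study names a single mouse as the source of the 3 tissues and describes replicates as coming from independent mice. The tissues of a replicate may thus share an animal, but which libraries do so is not given in the sources used here. The main fits did not pair the tissues, and fits with a block for the replicate number are given at the end. Oxidative bisulfite sequencing (oxBS-seq), which reads 5mC alone, was made in 3 cortex, 2 olfactory bulb and 2 cerebellum libraries. TET-assisted bisulfite sequencing (TAB-seq), which reads 5hmC alone, was made in 3 libraries of each tissue. RNA-seq libraries of the 3 tissues were not analysed here, so the tissue labels were not checked against marker genes.

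A level is a fraction of modification per bin, from 0 to 1, as deposited for each library without read counts. The study computed levels at CpG sites, so a level is not read as a share of all cytosines in the bin. The depth behind a level is unknown, and the error given is the SD between libraries. Each tissue was taken as a whole, and a shift in the mix of cell types cannot be told apart from a change within cells. Libraries of the same tissue correlated across bins with Pearson's r between 0.947 and 0.982 for 5mC and between 0.994 and 0.998 for 5hmC, above the highest r between tissues of 0.918 and 0.944. Cortex oxBS-seq library 3 had a mean 5mC level of 0.660 over all bins, below the 0.684 and 0.687 of the other cortex libraries. Over all bins, the median difference in 5mC was 0.0307 for olfactory bulb minus cortex, 0.0585 for cerebellum minus cortex and 0.0248 for cerebellum minus olfactory bulb (0.22, 0.43 and 0.19 on the log2 scale of level/(1 − level)). For 5hmC these medians were −0.0198, −0.0708 and −0.0498 (−0.24, −0.97 and −0.72 on the log2 scale). The changes of the members are read against these shifts of the whole genome.

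Kainate receptors are tetrameric cation channels that open when they bind glutamate. GluK1, GluK2 and GluK3, encoded by Grik1, Grik2 and Grik3, can form channels without other subunits, whereas GluK4 and GluK5, encoded by Grik4 and Grik5, bind kainate with high affinity and need one of the former as a partner. GluD1, encoded by Grid1, belongs to the delta receptors, which resemble the others in sequence but are known mainly as synaptic organisers that bind secreted cerebellins. In the brain, 5mC sits mostly at CpG sites and is oxidised by the TET enzymes to 5hmC, a mark that is abundant in the bodies of neuronal genes. Most members are long genes, and introns made up between 91.7% and 99.2% of their spans.

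The start regions of Grik2 and Grik3 are shown for the 5mC of the bins in and just after them. These held the lowest level of the member bins in cortex and cerebellum, or some of the largest departures from the genome's shift. In olfactory bulb the bin of Grik5 was the lowest (0.454), and its start region is not shown. Both sequences are the bases before the annotated start from RefSeq (GRCm38.p6), read 5′ to 3′ on the strand of the gene, with each CG in capitals. That of Grik2 lies at chr10:49788767-49789004 on the minus strand and that of Grik3 at chr4:125490446-125490695 on the plus strand.
Grik2: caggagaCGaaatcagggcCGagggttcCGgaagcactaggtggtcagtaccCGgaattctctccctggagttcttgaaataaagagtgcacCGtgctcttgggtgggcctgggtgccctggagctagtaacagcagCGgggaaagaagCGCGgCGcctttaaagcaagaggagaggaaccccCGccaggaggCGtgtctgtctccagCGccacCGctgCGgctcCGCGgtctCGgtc
Grik3: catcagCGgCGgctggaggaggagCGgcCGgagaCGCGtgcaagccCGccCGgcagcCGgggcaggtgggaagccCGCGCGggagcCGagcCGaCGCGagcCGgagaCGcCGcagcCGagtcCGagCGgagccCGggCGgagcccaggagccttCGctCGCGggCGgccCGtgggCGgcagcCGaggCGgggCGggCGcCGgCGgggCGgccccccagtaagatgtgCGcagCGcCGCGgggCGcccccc
The Grik2 sequence has 17 CG in 238 bases and the Grik3 sequence has 42 CG in 250 bases. Counted over the 250 bases before the RefSeq start, CG occurred 20 times for Grik2, 42 times for Grik3, 36 times for Grik4 and 8 times for Grik5, against a median of 6 over 32851 RefSeq promoters, of which 92.1% held at least 1 CG. Thus 82.1%, 99.1%, 97.4% and 57% of promoters, in the same order, had fewer. Each window fills a small part of a bin, and its own 5mC was not resolved by the deposited bins.

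The 100 kb bins of the members were mostly higher in 5mC in the bulb and cerebellum than in cortex, as most bins of the genome were. In olfactory bulb minus cortex, 17 of the 31 member bins were higher and 1 was lower at an adjusted p under 0.05 in limma, where 37.6% and 2.18% of all bins were. In cerebellum minus cortex, 25 were higher and 2 were lower, against 71.9% and 4.44% of all bins. In cerebellum minus olfactory bulb, 8 were higher and 2 were lower, against 35.3% and 7.69%. The lower bins were those of only 2 genes, the first 2 bins of Grik2 in both comparisons with cerebellum and the second bin of Grik3 in olfactory bulb minus cortex. The median difference over the member bins was 0.0474, 0.0665 and 0.0191 in the 3 comparisons, beside the 0.0307, 0.0585 and 0.0248 of all bins. The libraries of the 2 tissues compared did not overlap in 25, 27 and 21 of the 31 bins, against 65.1%, 81.9% and 74.8% of all bins. When each library was centred on its own median, the calls became 8 higher and 3 lower, 8 higher and 6 lower, and 6 higher and 6 lower, where those of all bins were 8.81% and 9.9%, 25.7% and 24.3%, and 22.1% and 21.3%. Without either olfactory bulb library, 9 bins passed in olfactory bulb minus cortex in place of 18, and without cerebellum oxBS-seq replicate 1, 6 passed in cerebellum minus olfactory bulb in place of 10.

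**Figure D1:**
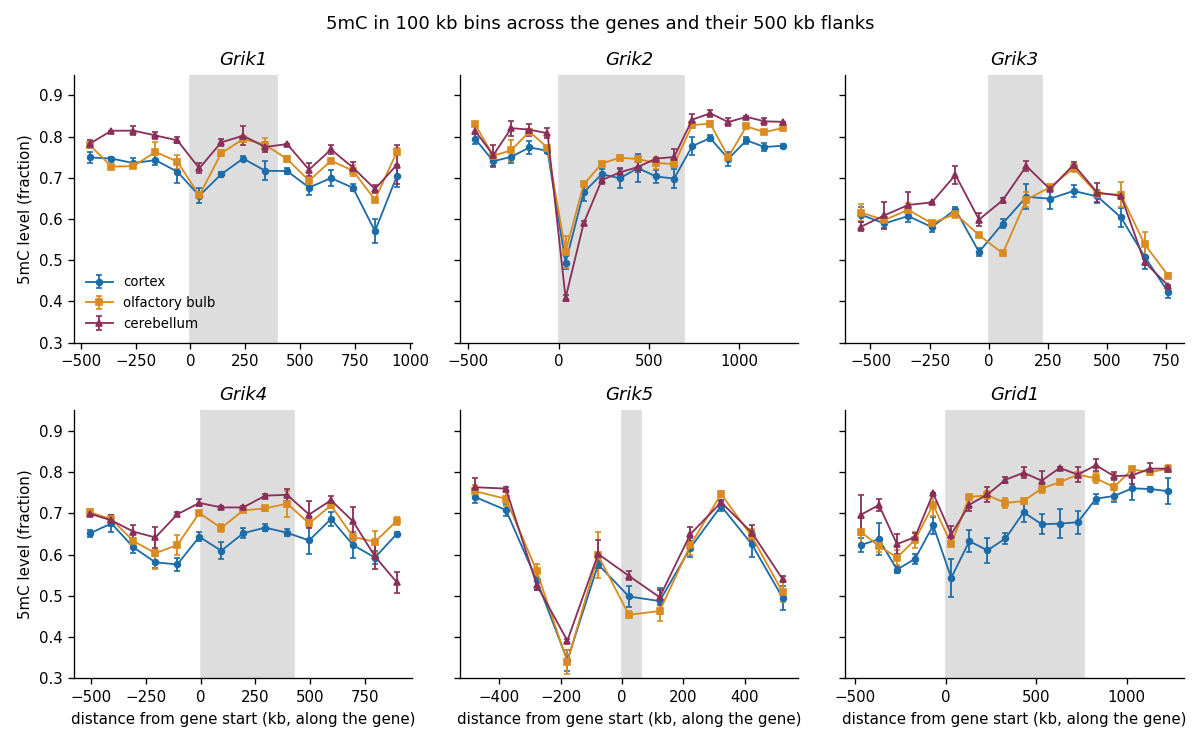
5mC level (fraction, mean and SD over 3 cortex, 2 olfactory bulb and 2 cerebellum libraries) of each 100 kb bin plotted at its distance in kb from the start of the gene, with the span of the gene shaded and 500 kb of flank on either side. The first bins of Grik2 fall to 0.494 in cortex, 0.521 in the bulb and 0.408 in cerebellum, the second bin of Grik3 is lowest in olfactory bulb (0.516), and in each bin within Grid1 the cortex lies below both other tissues.

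Grik1 (chr16:87895900-88290265, minus strand, 394 kb) encodes GluK1 and had the highest 5mC level over its gene body of the 6 members in each tissue. The gene body level, the unweighted mean of its 5 bins, was 0.709, 0.719 and 0.699 in the 3 cortex libraries, 0.748 and 0.746 in the olfactory bulb libraries, and 0.782 and 0.765 in the cerebellum libraries. The 3 tissues did not overlap, with cortex lowest and cerebellum highest. The means were 0.709 ± 0.00975 (SD, n = 3), 0.747 ± 0.00130 (SD, n = 2) and 0.774 ± 0.0115 (SD, n = 2), and 79.6%, 82.7% and 89.2% of protein-coding genes had lower levels in the respective tissue. The bin that holds the start had the lowest level in each tissue, 0.657 ± 0.0183 in cortex, 0.657 ± 0.00248 in the bulb and 0.723 ± 0.0124 in cerebellum. In that bin the olfactory bulb libraries (0.659 and 0.656) lay within the cortex libraries (0.643, 0.677 and 0.650), while both cerebellum libraries (0.732 and 0.714) were higher than all of these. Its cerebellum minus olfactory bulb difference of 0.0656 was the largest of the gene in that comparison, and it did not pass the threshold without cerebellum oxBS-seq replicate 1. Over the other 4 bins, olfactory bulb was higher than cortex by 0.0293 to 0.0631, and cerebellum by 0.0553 to 0.0776.

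Grik2 (chr10:49094833-49788766, minus strand, 694 kb) encodes GluK2, a subunit well known in the granule cells of the cerebellum, and was the member whose cerebellum level did not follow the genome's shift. Its gene body level over 8 bins was 0.692, 0.695 and 0.663 in the cortex libraries, 0.719 and 0.714 in the olfactory bulb libraries, and 0.688 and 0.680 in the cerebellum libraries. The cerebellum libraries lay within the range of the cortex libraries and below both olfactory bulb libraries. With means of 0.684 ± 0.0180 in cortex and 0.684 ± 0.00572 in cerebellum, the difference was 0.000241, where the median difference over all protein-coding genes was 0.0444. Of all protein-coding genes, 70.9% had a lower level in cortex, 71.4% in the bulb and 49.6% in cerebellum.

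Along Grik2, the cerebellum minus cortex difference went from below 0 at the start to near the genome's median of 0.0585 at the end. In the bin that holds the start, the level was 0.506, 0.499 and 0.477 in the cortex libraries, 0.548 and 0.494 in the olfactory bulb libraries, and 0.413 and 0.404 in the cerebellum libraries, so that both cerebellum libraries were below all others. In the next bin, the cortex libraries had 0.652, 0.690 and 0.653, the olfactory bulb libraries 0.685 and 0.683, and the cerebellum libraries 0.586 and 0.593. The cerebellum minus cortex difference was −0.0858 in the first bin and −0.0750 in the second (log2 changes of −0.50 and −0.47), and 0.951% and 1.19% of all 100 kb bins had lower differences. Both bins passed the threshold against cortex and against olfactory bulb under all 14 alternatives. In the next 3 bins this difference was −0.0144, 0.0143 and 0.00268 and did not pass. In the last 3 bins it was 0.0433, 0.0524 and 0.0644 and passed, although the gene covers only 5.17% of the very last. These 3 followed the genome's shift, with 34.9%, 43.6% and 56.8% of all bins lower, and 71.9% of all bins were called higher. The mean of the 4 bins nearer the start minus that of the 4 bins nearer the end was −0.0838 ± 0.0145 in cortex, −0.0885 ± 0.0180 in the bulb and −0.165 ± 0.0115 in cerebellum. The 2 cerebellum libraries (−0.173 and −0.157) were below all cortex and olfactory bulb libraries, which lay between −0.101 and −0.0746. Without the last bin, and with 3 bins on each side, the differences were −0.0857 ± 0.0153, −0.0917 ± 0.0236 and −0.177 ± 0.00717.

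Grik3 (chr4:125490700-125714173, plus strand, 223 kb) encodes GluK3 and had 1 bin in which both olfactory bulb libraries were lower than all libraries of the other tissues. Its gene body level over 4 bins was 0.600, 0.619 and 0.590 in the cortex libraries, 0.600 and 0.601 in the olfactory bulb libraries, and 0.667 and 0.656 in the cerebellum libraries. Olfactory bulb lay within the cortex range and cerebellum was above both. In the second bin, which lies wholly inside the gene, the cortex libraries had 0.581, 0.601 and 0.585, the olfactory bulb libraries 0.521 and 0.512, and the cerebellum libraries 0.650 and 0.641. The olfactory bulb was lowest and the cerebellum highest there, without overlap. The olfactory bulb minus cortex difference was −0.0726 (log2 change −0.42), with 0.912% of all bins lower, and the call was lost without olfactory bulb oxBS-seq replicate 2. The cerebellum minus olfactory bulb difference was 0.129 (log2 change 0.77), with 97.5% of all bins lower, and it passed under all 14 alternatives. In the bin with the start, by contrast, the olfactory bulb mean of 0.561 ± 0.00261 was above the cortex mean of 0.520 ± 0.00972, a difference that did not pass the threshold.

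Of the high-affinity subunits, Grik4 (chr9:42518135-42944493, minus strand, 426 kb), which encodes GluK4, was higher in both other tissues than in cortex in all of its 5 bins. Its gene body level was 0.638, 0.656 and 0.641 in the cortex libraries, 0.706 and 0.698 in the olfactory bulb libraries, and 0.732 and 0.725 in the cerebellum libraries, without overlap between tissues. It was the flattest of the members with several bins, also over bins mostly inside the gene. The lowest and highest bins were 0.0562 apart in cortex, 0.0592 in the bulb and 0.0306 in cerebellum, against 0.283, 0.307 and 0.433 in Grik2. Over bins of which the gene covers at least 50%, these ranges were the same for Grik4 and 0.229, 0.228 and 0.342 for Grik2. The bin with the start was not the lowest in any tissue. The largest cerebellum minus cortex difference was in the second bin, where cortex libraries had 0.603, 0.633 and 0.592, olfactory bulb libraries 0.671 and 0.659, and cerebellum libraries 0.713 and 0.717. The bins of Grik4 also held parts of the protein-coding genes Tbcel and Arhgef12.

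Grik5 (chr7:25009849-25072346, minus strand, 62.5 kb), which encodes GluK5, had the lowest level of the 6 members in each tissue, in the single bin that holds it. The level was 0.487, 0.529 and 0.480 in the cortex libraries, 0.460 and 0.448 in the olfactory bulb libraries, and 0.556 and 0.541 in the cerebellum libraries. The tissues did not overlap, with olfactory bulb lowest and cerebellum highest. Only 9.89%, 3.44% and 12.6% of protein-coding genes had lower levels in cortex, olfactory bulb and cerebellum. Olfactory bulb minus cortex was −0.0446, and 2.09% of all bins had lower differences. It did not pass the threshold, but did so under 5 of 14 alternatives, which were the fraction scale, centred libraries, a block for the replicate number, a block for the number in the library name, and leaving out cortex oxBS-seq replicate 3. Grik5 covers 62.5% of this bin, which also holds parts of other protein-coding genes, and the bin had 1742 CpG sites against a median of 751 per bin.

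Grid1 (chr14:34820108-35583379, plus strand, 763 kb) was the member with the largest gain of 5mC over cortex in both other tissues. Its gene body level over 8 bins was 0.645, 0.671 and 0.618 in the cortex libraries, 0.739 and 0.735 in the olfactory bulb libraries, and 0.770 and 0.750 in the cerebellum libraries. Every cortex library was below every library of the other tissues, in each of the 8 bins as well. Libraries did not overlap in 81.9% of all bins in cerebellum minus cortex and in 65.1% in olfactory bulb minus cortex. All 8 bins were called higher in cerebellum minus cortex, where 71.9% of all bins were. In olfactory bulb minus cortex 7 were, against 37.6%. The remaining one, the fifth, had a difference of 0.0274, below the 0.0307 of the genome. The means were 0.645 ± 0.0268, 0.737 ± 0.00327 and 0.760 ± 0.0146, which is 0.0924 and 0.116 above cortex, where the medians over all protein-coding genes were 0.0299 and 0.0444. In the third bin the cortex libraries had 0.616, 0.638 and 0.577, the olfactory bulb libraries 0.751 and 0.737, and the cerebellum libraries 0.759 and 0.733. That bin had the largest olfactory bulb minus cortex difference, 0.134 (log2 change 0.89), and 99.6% of all bins had lower differences. In the fourth bin cerebellum was higher than cortex by 0.143 (log2 change 1.02), with 97.3% of bins lower. Both bins passed the threshold against cortex under all 14 alternatives. The cortex libraries of Grid1 also spread most, with an SD of 0.0461 in the bin that holds the start.

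Among the members, the order of the gene body levels was shared by the tissues for Grik5, Grik3 and Grik1, while Grik2, Grik4 and Grid1 changed places. In cortex it ran from Grik5 through Grik3, Grid1, Grik4 and Grik2 to Grik1, and the libraries of Grid1 overlapped those of Grik3, Grik4 and Grik2. In olfactory bulb it ran from Grik5 through Grik3, Grik4, Grik2 and Grid1 to Grik1, with no overlap between neighbours. In cerebellum Grik2 stood below Grik4, and of the neighbours the libraries of Grid1 (0.750 to 0.770) and Grik1 (0.765 to 0.782) alone overlapped. In limma over protein-coding genes, the gene bodies of Grik4 and Grid1 passed the threshold in olfactory bulb minus cortex, where 26.4% of genes did in this direction, and all members except Grik2 did so in cerebellum minus cortex, where 55% did. In cerebellum minus olfactory bulb, Grik3 and Grik5 passed, against 18%. Without cortex library 1 or either olfactory bulb library, 1 gene body passed in olfactory bulb minus cortex, without cerebellum replicate 1, 3 passed in cerebellum minus cortex, and without any single olfactory bulb or cerebellum library, 1 passed in cerebellum minus olfactory bulb. All of these gene bodies were higher in the tissue named first, but relative to the median of each library Grik5 was not higher in cerebellum than in cortex (−0.00644). Base composition also differed between the members, from 431 CpG sites per 100 kb and 35.8% GC in Grik2 to 1742 and 52.1% in Grik5, and its part in the order was not tested.

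**Figure D2:**
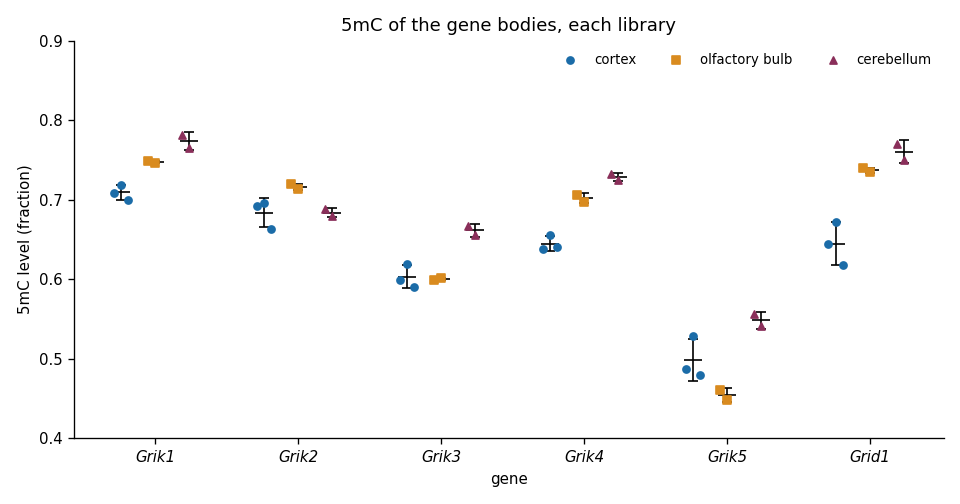
5mC level (fraction) of each gene body in each oxBS-seq library (points) with the mean and SD (black) for the 3 tissues. Grik5 is lowest and Grik1 highest in each tissue, cerebellum lies above cortex in all members but Grik2 (both 0.684), and Grid1 shows the widest gap between cortex (0.645) and the other tissues (0.737 and 0.760).

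To see whether the genes moved with their surroundings, the level of the flanks was subtracted from the gene body level in each library. The level of the flanks was the mean of the 10 bins within 500 kb on either side. The subtraction also cancels a shift that adds the same amount to every bin of a library, but not one that depends on the level. Over all protein-coding genes this difference had medians of −0.0148 in cortex, −0.0121 in the bulb and −0.0116 in cerebellum. Grik2 was well below its flanks, with −0.0859, −0.0786 and −0.0982 in the cortex libraries, −0.0762 and −0.0859 in the olfactory bulb libraries, and −0.143 and −0.135 in the cerebellum libraries. Its flanks themselves rose in the same order as the genome, from 0.771 ± 0.00893 in cortex to 0.797 ± 0.00292 in the bulb and 0.823 ± 0.0119 in cerebellum, higher than the flanks of 99.2% or more of genes in each tissue. Grik2 lay furthest below its flanks in cerebellum, by −0.0514 against cortex and −0.0579 against olfactory bulb. Grik5 was below its flanks in each tissue, with −0.0863 ± 0.0169 in cortex, −0.144 ± 0.00806 in the bulb and −0.0626 ± 0.00365 in cerebellum.

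Grid1 was below its flanks in the 3 cortex libraries (−0.0470, −0.0187 and −0.0519) and above them in the olfactory bulb libraries (0.0203 and 0.0155) and the cerebellum libraries (0.0139 and 0.0159). Grik3 was above its flanks in cortex (0.0113, 0.0221 and 0.0152) and cerebellum (0.0412 and 0.0499) but not in olfactory bulb (−0.0154 and −0.000386). Grik4 was above its flanks in every library, by 0.0157 ± 0.00964 in cortex, 0.0417 ± 0.00427 in the bulb and 0.0670 ± 0.0146 in cerebellum. Grik1 stayed within 0.0201 of its flanks in every library.

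In limma on this difference, Grid1 was higher (0.0571) and Grik5 lower (−0.0573) in olfactory bulb minus cortex, where 5.84% of protein-coding genes passed the threshold, and the call of Grid1 was lost with a replicate block. In cerebellum minus cortex, Grik4 (0.0513) and Grid1 (0.0541) were higher and Grik2 was lower (−0.0514), where 22.9% of genes passed. In cerebellum minus olfactory bulb, Grik3 (0.0535) and Grik5 (0.0810) were higher and Grik2 was lower (−0.0579), where 20.8% passed. Leaving out libraries kept these signs but not all of the calls. Without either olfactory bulb or either cerebellum library none of the 6 members passed in olfactory bulb minus cortex, without cortex library 1 or 3 only 1 did, and in cerebellum minus cortex 1 passed without cerebellum oxBS-seq replicate 1 and 0 without replicate 2. In cerebellum minus olfactory bulb 2 or 3 passed without any single library.

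**Figure D3:**
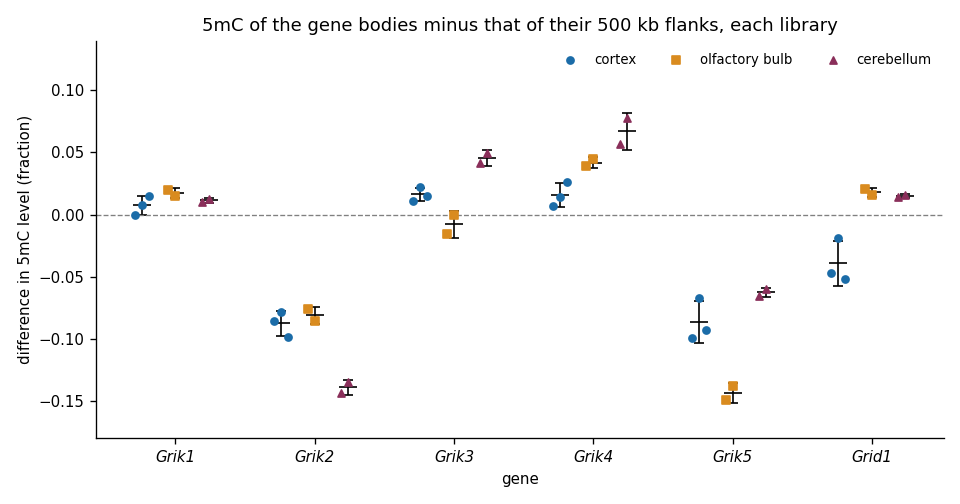
5mC of the gene body minus that of the 500 kb flanks (difference of fractions) in each oxBS-seq library (points), with the mean and SD (black) and a dashed line at 0. Grik2 lies furthest below 0 in cerebellum (mean −0.139), Grik5 in olfactory bulb (mean −0.144), and Grid1 lies below 0 in cortex (mean −0.0392) but above 0 in both other tissues.

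5hmC fell from cortex to cerebellum in the 1 Mb bins of 5 members but not in that of Grik2. In cerebellum minus cortex, 7 of the 8 bins were lower and 1, that of Grik2, was higher at an adjusted p under 0.05 in limma, where 97.6% of all bins were lower and 0.426% were higher. In cerebellum minus olfactory bulb, again 7 were lower and that of Grik2 was higher, where 91.8% and 1.2% were. In olfactory bulb minus cortex, 5 were lower and that of Grik3 was higher, where 67.7% and 3.25% were. The libraries of the 2 tissues did not overlap in 8, 8 and 7 of the 8 bins in these comparisons, against 97.9%, 94% and 71.5% of all bins. Centred on the median of each library, the split of calls became 3 higher and 1 lower in olfactory bulb minus cortex, and 5 higher and 3 lower in each of the comparisons with cerebellum. In the same order, 36.2% and 33%, 50.3% and 40.1%, and 50.9% and 39.1% of all bins were then higher and lower. A 1 Mb bin is wider than any member, and the share of it that the gene covers was 69.4% for Grik2, 42.6% for Grik4, 22.3% for Grik3 and 6.25% for Grik5, while the paired bins of Grid1 and Grik1 were covered to 38.2% and 19.7%.

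The bin of Grik2 had a 5hmC level of 0.185, 0.195 and 0.171 in the cortex libraries, 0.182, 0.187 and 0.180 in the olfactory bulb libraries, and 0.202, 0.204 and 0.207 in the cerebellum libraries. Each cerebellum library was above all libraries of the other tissues, which overlapped each other. The means were 0.184 ± 0.0121, 0.183 ± 0.00371 and 0.204 ± 0.00242 (SD, n = 3 each). Cerebellum minus cortex was 0.0201 (log2 change 0.19), which ranked 7 of 2581 bins from the highest, and cerebellum minus olfactory bulb was 0.0209, which ranked 25. The former did not pass the threshold without cortex TAB-seq replicate 3 and passed under the other 15 alternatives. The next bin before the start of the gene fell from 0.136 ± 0.0103 in cortex through 0.115 ± 0.00607 in olfactory bulb to 0.0811 ± 0.00629 in cerebellum, and the next bin past its end from 0.105 ± 0.00628 through 0.0892 ± 0.00654 to 0.0421 ± 0.00159. Neither neighbour kept its level in cerebellum, and the bin of Grik2 was the only member bin that did.

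The bin of Grik3 had 0.181, 0.191 and 0.168 in the cortex libraries, 0.211, 0.217 and 0.204 in the olfactory bulb libraries, and 0.104, 0.105 and 0.111 in the cerebellum libraries. Olfactory bulb was highest without overlap, by 0.0304 over cortex (log2 change 0.28), which ranked 20 of 2581 bins and passed under all 16 alternatives. The neighbouring bins went the other way, by −0.0183 before the start and −0.0280 past the end. Grik3 was also the member with a 100 kb bin whose lower 5mC in olfactory bulb than in cortex passed the threshold, although the 1 Mb bin extends well beyond it.

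Grik4 had the highest 5hmC of the members in cortex, with 0.219, 0.235 and 0.214, and fell to 0.199, 0.206 and 0.197 in the bulb and 0.142, 0.148 and 0.152 in cerebellum. Grik5 had the lowest in cortex, with 0.153, 0.162 and 0.148, and the smallest fall, to 0.116, 0.107 and 0.118 in cerebellum. In cerebellum minus cortex the differences were −0.0733 for Grik3, −0.0752 for Grik4 and −0.0410 for Grik5, where the median over all bins was −0.0708, so that those of Grik3 and Grik4 were close to the genome's and that of Grik5 was smaller. The 2 bins of Grid1 averaged 0.195 ± 0.0143 in cortex, 0.167 ± 0.00506 in the bulb and 0.0989 ± 0.00260 in cerebellum. In the bin that holds most of Grid1, 5hmC went from 0.194, 0.208 and 0.180 in cortex to 0.0809, 0.0756 and 0.0805 in cerebellum, a difference of −0.115, and 3.49% of bins had lower differences. The 2 bins of Grik1 averaged 0.169 ± 0.00842, 0.145 ± 0.00452 and 0.0777 ± 0.00229, the lowest level of the members in cerebellum.

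**Figure D4:**
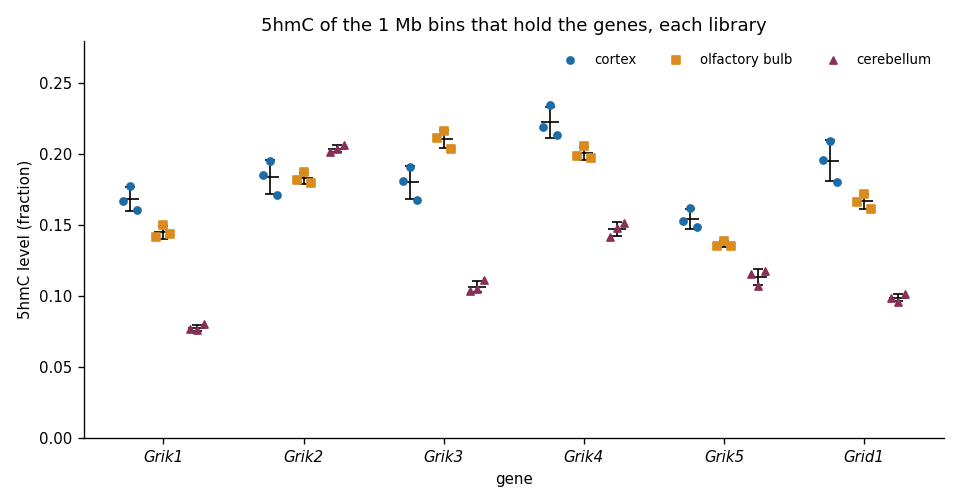
5hmC level (fraction) of the 1 Mb bins that hold each gene (mean of 2 bins for Grik1 and Grid1) in each TAB-seq library (points), with the mean and SD (black). In cerebellum Grik2 stands at 0.204 while the other members lie between 0.0777 and 0.147, and in olfactory bulb Grik3 is highest at 0.211.

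The 2 marks were added per 1 Mb bin, with 5mC as the mean of 10 bins of 100 kb, to see whether their sum or their shares differed. They come from different libraries, so the error is the root of the summed squared SDs and no test was made. For Grik2 the sum was 0.885 ± 0.0196 in cortex, 0.915 ± 0.00425 in the bulb and 0.913 ± 0.00762 in cerebellum, and 5hmC made up 20.8%, 20.02% and 22.3% of it. Over all bins that share was 19.4%, 17.0% and 11.5%, and the bin of Grik2 ranked 1233, 813 and 64 of 2581 in the 3 tissues. Grik3 had its highest share in olfactory bulb, 25.3%, which ranked 104, against 22.7% in cortex and 13.9% in cerebellum. Grik4 had 25.8% in cortex, 22.6% in the bulb and 17.6% in cerebellum, above the genome's share in each. In the bin that holds most of Grid1 the share went from 21.8% in cortex through 17.5% in the bulb to 9.07% in cerebellum. The sum there was 0.892 ± 0.0224, 0.932 ± 0.00540 and 0.871 ± 0.0142. Cortex and cerebellum differed within the combined error, while the bulb was above both by more than that error.

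**Figure D5:**
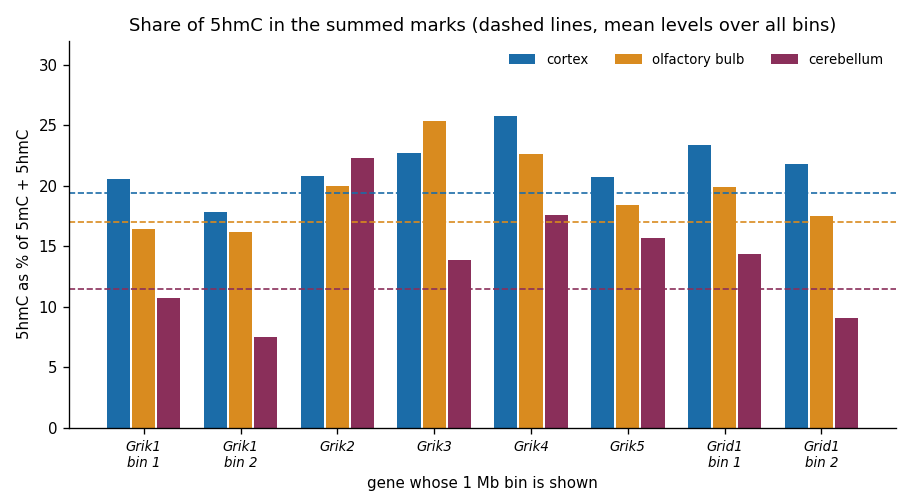
5hmC as a percentage of the sum of 5mC and 5hmC in the 1 Mb bins of each gene (bars, from tissue means), with dashed lines at the share over all bins in the same colours. The share falls from cortex to cerebellum in 7 of the 8 bins and is highest in cerebellum for Grik2 (22.3%), where the share over all bins is 11.5%.

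A list of partner genes of these receptors was followed in the same way, of which 12 of 13 matched the annotation. It holds the cerebellins and C1q-like proteins (Cbln1 to Cbln4, C1ql1 to C1ql3) that bind delta or kainate receptors at synapses, the auxiliary kainate subunits Neto1 and Neto2, the scaffold genes Grip1 and Pick1, and the RNA-editing enzyme gene Adarb1. Gene body 5mC of 2 was higher and of 0 was lower in olfactory bulb minus cortex, 7 were higher and 1 was lower in cerebellum minus cortex, and 4 were higher and 2 were lower in cerebellum minus olfactory bulb. In the same comparisons 26.4% and 0.868%, 55% and 4.27%, and 18% and 7.69% of protein-coding genes were. For gene body minus flanks, 0 were higher and 1 was lower, 3 were higher and 3 were lower, and 1 was higher and 4 were lower, against 3.27% and 2.58%, 11.7% and 11.2%, and 9.94% and 10.9% of genes. The median gene body differences of the list were 0.0280, 0.0472 and 0.0243, beside 0.0299, 0.0444 and 0.0118 over all genes. C1ql3 was higher in all 3 comparisons, with means of 0.634 in cortex, 0.700 in the bulb and 0.756 in cerebellum. Grip1 (0.797), Neto1 (0.743) and Neto2 (0.755) were higher in cerebellum than in cortex (0.701, 0.646 and 0.686) and olfactory bulb (0.669, 0.682 and 0.678). Cbln1 was lower in cerebellum (0.492) than in cortex (0.583) and olfactory bulb (0.628). Cbln3 was lower in cerebellum (0.576) than in olfactory bulb (0.658). All of these are levels of whole 100 kb bins that overlap a gene. Such bins also hold sequence outside it, and the part that each partner gene covers is not given, so the levels are not those of the genes alone.

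In 5hmC, 9 of the 13 bins of the list (12 distinct) were lower in olfactory bulb than in cortex, 12 were lower in cerebellum than in cortex, and 12 were lower and 1 was higher in cerebellum than in olfactory bulb, beside 67.7%, 97.6%, 91.8% and 1.2% of all bins. The higher bin was that of Cbln1, with means of 0.192 in cortex, 0.164 in the bulb and 0.185 in cerebellum, and it was also the bin that did not pass in cerebellum minus cortex. The bin of Cbln1 and that of Grik2 were thus the bins of the list and of the members that were higher in cerebellum than in olfactory bulb. The bin of Cbln3, another cerebellin, was among the lower ones, with means of 0.161 in cortex, 0.137 in the bulb and 0.117 in cerebellum. A 1 Mb bin also holds sequence outside these genes.

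Among 2480 protein-coding genes of at least 100 kb that share no bin with a member, the genes nearest in gene body 5mC over the 7 oxBS-seq libraries were taken by Euclidean distance. The nearest genes were Itgbl1 and Dnah7c for Grik1 (distances of 0.00925 and 0.0103), Mtm1 and Adgre4 for Grik2 (0.0192 and 0.0196), and Btrc and AU040320 for Grik3 (0.0194 and 0.0248). They were Phldb2 and Arhgef28 for Grik4 (0.0181 and 0.0217), Ncam1 and Cdk17 for Grik5 (0.0465 and 0.0622), and Thrb and Nrg1 for Grid1 (0.0299 and 0.0303). Grik5 had the most distant neighbours, but at 62.5 kb and in a single bin it is shorter than any candidate. Genes of its own length were not searched. The nearest gene to Grid1, the thyroid hormone receptor gene Thrb, had means of 0.636 in cortex, 0.733 in the bulb and 0.765 in cerebellum.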

How the data were processed

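5mC was measured by oxBS-seq and 5hmC by TAB-seq in cortex, olfactory bulb and cerebellum, with groups and replicate numbers taken from the labels. Per the study's methods, the authors aligned uniquely mapped reads to mm10 with Bismark and used a binomial model to call sites. For each library they deposited a fraction from 0 to 1 per bin, of 100 kb for 5mC and of 1 Mb for 5hmC. The study gives a mean depth per tissue and a minimum coverage per called site, but how sites were combined within a bin and the coverage behind each bin are not given in the sources used here, so no counting interval can be given, and a bin read at low depth weighs as much as any other. Of 22 samples, the 16 bisulfite libraries were used and the RNA-seq libraries were not analysed here.

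A bin was dropped when some library of its assay had it at 0 or 1, which kept 25664 and 2581 bins. The quantity log2(level/(1 − level)) was fitted by limma 3.58.1 (R 4.3.3), with 1 fit per assay over the 3 tissues and Benjamini-Hochberg adjustment over all bins at 0.05. Gene bodies were the unweighted mean of all overlapping 100 kb bins, tested alike over 21664 protein-coding genes, and gene body minus flanks was tested on the fraction scale. Gene positions came from GENCODE vM21, and CpG sites and GC content from GRCm38. Python 3.11.15 with numpy 2.4.6, pandas 2.3.3 and matplotlib 3.10.9 was used for the rest.

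On simulated levels, a change was set in 200 bins for cerebellum minus cortex. Limma recovered a log2 change of 0.5 for 72.5% of them among 25664 bins of 5mC and for 100% among 2581 bins of 5hmC. One of 0.2 was recovered for 0% and 27%. Far more bins passed in the data, which makes the adjusted threshold less strict there, so these shares do not carry over to the data. The members, the partner list and the tests were chosen with earlier results of these data known. Some genes of the partner list are not reported here, and its counts leave them out. Within each member the text names the bin that holds the start, the lowest bin of each tissue, and the bin with the largest difference among those in which the libraries of 2 tissues do not overlap. Other bins and values, and the restriction to bins mostly inside a gene, were chosen after they were seen. Alternatives were the fraction scale, centred libraries, other weights and flanks, a replicate block and leaving out each library.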

Additional observations from a re-analysis of the deposited data

Results flagged for a closer look

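The 5mC of the gene body minus that of its flanks had opposite signs in all libraries of 2 tissues for 2 members. For Grid1 it was negative in every cortex library and positive in every olfactory bulb and cerebellum library, with differences of 0.0571 for olfactory bulb minus cortex and 0.0541 for cerebellum minus cortex. For Grik3 it was positive in every cortex and cerebellum library and negative in both olfactory bulb libraries, with differences of −0.0241 for olfactory bulb minus cortex and 0.0535 for cerebellum minus olfactory bulb. In limma over protein-coding genes the 2 differences of Grid1 and the cerebellum minus olfactory bulb difference of Grik3 passed the threshold, and the olfactory bulb minus cortex difference of Grik3 did not. One of the olfactory bulb values of Grik3 was −0.000386, close to 0. The medians over all protein-coding genes were themselves below 0, at −0.0148 in cortex, −0.0121 in the bulb and −0.0116 in cerebellum. The olfactory bulb mean of Grik3 (−0.00789) was above that of 52.6% of genes, and the cortex mean of Grid1 (−0.0392) above that of 37.1%. The share of all genes with such opposite signs is not given. With 2 or 3 libraries per tissue no library could be tested for standing apart within its group.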

How the results depend on the processing

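Of the member bins, 18 passed in 5mC for olfactory bulb minus cortex, 27 for cerebellum minus cortex and 10 for cerebellum minus olfactory bulb, and with centred libraries the first became 11 and the second 14. Without either olfactory bulb oxBS-seq library, 9 passed in the first comparison, and without cerebellum oxBS-seq replicate 1, 6 passed in the third. Leaving out each library gave 9 to 19, 22 to 27 and 6 to 13 in 5mC, and 5 to 7, 7 to 8 and 8 to 8 in 5hmC. For gene bodies it gave 1 to 3 members in olfactory bulb minus cortex, 3 to 5 in cerebellum minus cortex (3 without cerebellum oxBS-seq replicate 1) and 1 to 2 in cerebellum minus olfactory bulb, and for gene body minus flanks 0 to 2, 0 to 3 and 2 to 3. A lone remaining library was assumed to vary like the other groups. The share of all bins or genes with a library left out is not given. A loss of calls over the whole genome therefore cannot be told apart from one in these members. With the library median subtracted, 2 gene bodies passed in cerebellum minus cortex in place of 5. Relative to that median the sign turned for 5mC of Grik2 (−0.0562) and Grik5 (−0.00644) in cerebellum minus cortex, and for 5hmC of Grik3 (0.00822) in cerebellum minus cortex, of Grik4 (0.00101, 0.00633 and 0.00532) and of Grik5 (0.00496, 0.0406 and 0.0356) in olfactory bulb minus cortex, cerebellum minus cortex and cerebellum minus olfactory bulb. The median of the differences over all bins is another reference, and against it Grik3 (−0.00251) and Grik4 (−0.00202, −0.00440 and −0.00363) kept their sign in 5hmC, so for these the sign relative to the genome depends on the median used. The fraction scale, a trended and robust fit, autosomes alone and all bins kept left the member bin counts within 1.5 times. Grik5 has no bin wholly inside the gene, so that alternative gives no value for it.

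Deviations of same-numbered libraries correlated with r between −0.0932 and 0.0290 in 5mC and between −0.191 and 0.429 in 5hmC, where 3 of 9 pairs were over 0.1. Not every pair was over 0.1, so the numbers were not taken to pair the libraries, which does not show that they are unpaired in 5hmC. With a replicate block 19, 27 and 13 member bins passed in 5mC and 7, 8 and 8 in 5hmC, and 3, 4 and 2 gene bodies. The share of all bins or genes that passed with this block is not given. A change of calls over the whole genome thus cannot be told apart from one in these members. For gene body minus flanks the block, added after seeing the data, left 1, 3 and 3 members in place of 2, 3 and 3, and the call lost was that of Grid1 in olfactory bulb minus cortex (0.0507). The block also made the gene body of Grik5 pass in olfactory bulb minus cortex (−0.0540) and not in cerebellum minus cortex (0.0406). The SD between 2 or 3 libraries was the only measure of precision. A log2 change of 0.2 was mostly missed in the simulation, where few bins changed. In the data, 5hmC changes of 0.188 (Grik2, cerebellum minus cortex) and −0.188 (Grik4, olfactory bulb minus cortex) passed.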
